A study of Homo sapiens with 6 samples.

Results

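The 10 genes of the NF-κB system examined were *NFKB1*, *NFKB2*, *RELA* and *RELB*, which encode subunits of the transcription factor, *NFKBIA*, *NFKBIB*, *NFKBIE* and *NFKBIZ*, which encode proteins of the IκB family, and *TNFAIP3* and *TNIP1*, which encode the ubiquitin-editing enzyme A20 and its binding partner ABIN-1. They were picked by gene symbol, without a threshold on a measured value but with earlier results of these data known. They make up 10 of the 29744 genes in the deposited table. RNA was sequenced from LNCaP, a line of human prostate cancer cells that respond to androgen, after 4 h with 250 nM CDKI-73 (n = 3) or with its vehicle, DMSO (n = 3). CDKI-73 blocks CDK9, the kinase that releases paused RNA polymerase II into productive elongation. By the study's account the drug also acts on CDK1, CDK2 and CDK7 in kinase assays, and effects not due to CDK9 remain possible. All 6 samples are the same cell line, grown in RPMI-1640 with 10% FBS, and the comparison asks how short treatment with CDKI-73 alters the polyadenylated RNA of these genes. Values are CPM, in which the reads of a gene are given as a share of all counted reads of its sample and every sample has the same total.

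NF-κB dimers are held in the cytoplasm by IκB proteins until IκB kinase (IKK) marks these for ubiquitination and destruction, after which the dimers enter the nucleus. Several genes that NF-κB switches on encode its own restraints, IκBα (*NFKBIA*), IκBε (*NFKBIE*) and A20 (*TNFAIP3*) among them, which is a classic example of negative feedback. The products of *NFKB1* (p105) and *NFKB2* (p100) are both precursors of DNA-binding subunits (p50 and p52) and IκB-like inhibitors.

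The 250 bases before the start of *NFKBIA*, *NFKB1* and *TNFAIP3* are shown. Among the 10 genes, these have a RefSeq window that ends at the MANE Select start and holds the κB consensus, the sequence NF-κB dimers bind. Each sequence is from RefSeq (GRCh38.p14), 5′ to 3′ on the strand of the gene and ending at the base before its start, with matches to the κB consensus on either strand in capitals. That of *NFKBIA* covers chr14:35404750-35404999 (minus strand), that of *NFKB1* chr4:102501109-102501358 (plus strand) and that of *TNFAIP3* chr6:137867009-137867258 (plus strand). The window of *TNFAIP3* lies within the RefSeq span of the gene, which begins further upstream at 137866349.
NFKBIA: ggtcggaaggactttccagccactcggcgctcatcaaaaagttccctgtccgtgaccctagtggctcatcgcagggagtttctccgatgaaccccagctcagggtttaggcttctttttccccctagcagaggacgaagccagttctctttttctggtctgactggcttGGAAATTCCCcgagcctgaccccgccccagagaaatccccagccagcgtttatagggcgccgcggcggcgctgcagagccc
NFKB1: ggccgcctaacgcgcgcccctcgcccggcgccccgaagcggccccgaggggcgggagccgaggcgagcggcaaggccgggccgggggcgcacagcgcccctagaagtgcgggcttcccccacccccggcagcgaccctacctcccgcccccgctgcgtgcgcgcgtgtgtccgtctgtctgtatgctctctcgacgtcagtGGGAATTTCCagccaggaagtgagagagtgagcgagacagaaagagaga
TNFAIP3: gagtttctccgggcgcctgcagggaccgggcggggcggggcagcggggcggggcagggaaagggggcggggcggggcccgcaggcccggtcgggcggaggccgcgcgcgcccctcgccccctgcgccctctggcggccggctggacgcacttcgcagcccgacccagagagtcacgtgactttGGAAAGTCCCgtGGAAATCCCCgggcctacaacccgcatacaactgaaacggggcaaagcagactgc

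The match in *NFKB1* reads GGGAATTTCC on the strand of the gene and lies 40 to 49 bases before the start. In *NFKBIA* the identical 10 bases, GGGAATTTCC, are read on the opposite strand, 72 to 81 bases before the start. *TNFAIP3* has 2 matches, both on the opposite strand, GGGACTTTCC at 58 to 67 and GGGGATTTCC at 46 to 55 bases before the start. A RefSeq window was found for 8 of the 10 genes (all but *NFKBIE* and *RELB*). That of *NFKBIZ* also holds GGGAATTTCC, but it ends 21524 bases upstream of the MANE Select start, at another start of the gene. The windows of *NFKBIB*, *NFKB2*, *RELA* and *TNIP1* hold no match, and none of these 4 ends at the MANE Select start either. Of all 27305 RefSeq windows 5.05% hold the consensus, and of the 9487 belonging to tested genes 5.88% hold at least 1 match and 0.717% hold 2 or more. Tested genes had a median log2 fold change, CDKI-73 over DMSO, of −0.27 with a match and −0.19 without. A match describes the letters of a window and does not show binding in these cells.

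After 4 h with CDKI-73, RNA of *NFKBIE*, *NFKBIA*, *TNFAIP3*, *NFKB1* and *NFKBIZ* was at least 2-fold lower than with DMSO in CPM as deposited, with log2 fold changes from −1.83 to −1.01. *RELA*, *NFKB2* and *NFKBIB* were lower by less than 2-fold, and *RELB* and *TNIP1* did not pass the test. The inhibitor genes were spread over nearly the whole range of the group: *NFKBIE* and *NFKBIA* fell most, while *NFKBIB*, a gene of the same class, and *TNIP1* kept 82.8% and 97.1% of their DMSO level. Genes with a mean of at least 0.5 CPM over the 6 samples were tested by limma on log2(CPM + 0.1), with adjustment by the Benjamini-Hochberg method over all 13373 tested genes, and called where this adjusted p was at most 0.05 and the groups differed at least 2-fold. Every one of the 10 genes passed the filter. Of the 10, 5 were called lower, where 22.3% of all tested genes were, and 8 were lower by the limma adjusted p alone, whatever the fold, where 48.2% were. Scaled by the trimmed mean of M values, 3 of the 10 and 2499 of the 13373 tested genes were called lower. With the median of gene ratios these were 3 and 2543, with the upper quartile 2 and 2296, and with the reference genes *GAPDH*, *HPRT1* and *ACTB* 6 and 4377. All CDKI-73 samples were below all DMSO samples for 8 of the 10, every one but *RELB* and *TNIP1*, a separation that 50.0% of tested genes showed. The number of the 10 that were higher was 0 by limma, with 0 at an unadjusted p under 0.05. It was 1 (*TNIP1*) by limma with the CPM scaled to the median of gene ratios, the trimmed mean of M values or the upper quartile. It was also 1 (*TNIP1*) by limma voom, which was itself scaled by the trimmed mean of M values. For comparison, 1.11% of all tested genes were called higher, 24.2% passed the adjusted p and were higher, and 25.9% had all CDKI-73 samples above all DMSO samples. The median log2 fold change was −0.90 over the 10 genes and −0.18 over all tested genes. Because the 10 were chosen with earlier results of these data known, these contrasts are descriptions and not tests.

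**Figure D1:**
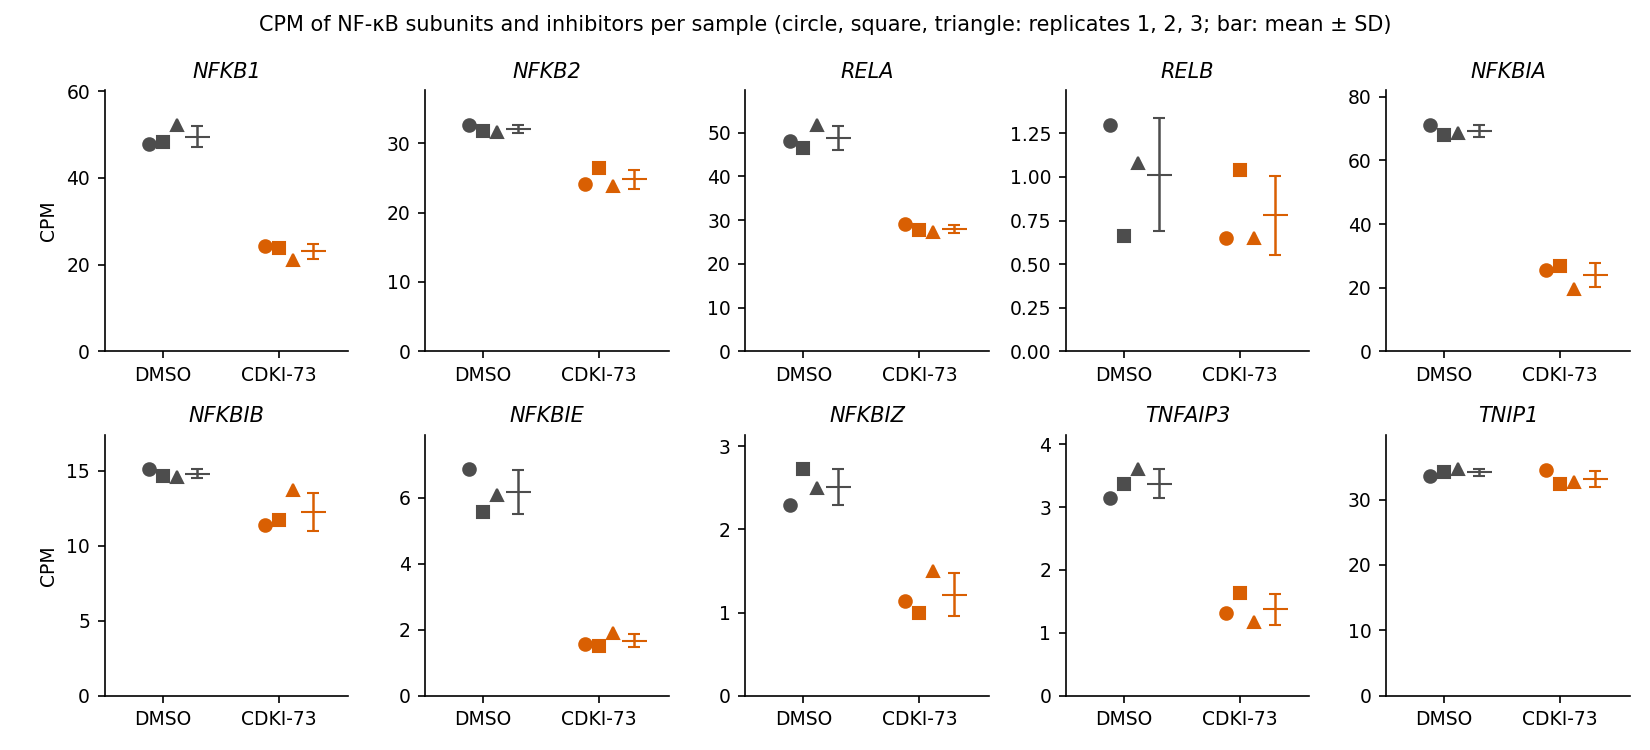
CPM of each of the 10 genes in the 3 DMSO (grey) and 3 CDKI-73 (orange) samples, on linear axes that start at 0, with circles, squares and triangles for replicates 1, 2 and 3 and the mean ± SD beside them. The groups are apart in 8 genes and overlap in *RELB* and *TNIP1*.

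Counted reads, inferred from the step between CPM values, numbered 46.1 to 60.9 M per sample, so that 1 read is worth 0.0164 to 0.0217 CPM. CDKI-73 replicate 3 stood furthest from the other samples of its group, with a chi-square per gene of 26.1 and 28.6 against 3.36 between the other CDKI-73 replicates. The prostate marker *KLK3* was at 2480 to 3336 CPM. Immune markers summed to 4.96 to 5.77 CPM with DMSO and 6.51 to 7.54 CPM with CDKI-73, nearly all of it *CD68*, with the leukocyte gene *PTPRC* at 0 to 0.04 CPM, and stromal markers, nearly all *COL1A1*, to 9.76 to 10.4 and 13.2 to 15.3 CPM, and the part of these markers in the results was not tested. These are bulk samples, in which fewer cells and less RNA per cell cannot be told apart. Because CPM are shares, another scaling moves all genes together: the median log2 fold change of tested genes, −0.18 with the CPM as deposited, was −0.0042 with the median of gene ratios, 0.01 with the trimmed mean of M values, 0.09 with the upper quartile and −0.58 with the reference genes *GAPDH*, *HPRT1* and *ACTB*.

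Among the subunits, *NFKB1* (chr4:102501359-102617302), which encodes p105 and p50, had 47.9, 48.3 and 52.3 CPM in DMSO replicates 1, 2 and 3 and 24.2, 23.8 and 21.2 CPM in CDKI-73 replicates 1, 2 and 3. The groups were far apart, and the highest DMSO and the lowest CDKI-73 value were both those of replicate 3. It went from 49.5 ± 2.44 to 23.1 ± 1.64 CPM (SD, n = 3 each), a log2 fold change of −1.10 (SE 0.068, limma adjusted p = 1.6e-06). The change fell short of 2-fold when samples were scaled by the median of gene ratios (−0.92), the trimmed mean of M values (−0.91) or the upper quartile (−0.83).

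*RELA* (chr11:65653601-65663857), which encodes p65, the main transactivating partner of p50, had 48.0, 46.6 and 51.9 CPM with DMSO and 29.0, 27.7 and 27.4 CPM with CDKI-73. The CDKI-73 samples lay close together, well below the lowest DMSO sample. Its log2 fold change was −0.80 (SE 0.058, limma adjusted p = 4.3e-06), so 57.4% of the DMSO level remained. It reached 2-fold with the reference genes (−1.20).

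*NFKB2* (chr10:102394110-102402529), which encodes p100 and p52 of the non-canonical branch, had 32.7, 31.7 and 31.6 CPM with DMSO and 24.2, 26.4 and 23.8 CPM with CDKI-73. Its groups were also apart, but the fall was smaller than that of its relative *NFKB1*, from 32.0 ± 0.583 to 24.8 ± 1.40 CPM (SD, n = 3 each). The log2 fold change was −0.37 (SE 0.058, limma adjusted p = 5.1e-04), and lay between −0.09 (limma adjusted p = 0.152) with scaling by the upper quartile and −0.78 (limma adjusted p = 2.1e-05) with the reference genes.

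*RELB* (chr19:45001464-45038192), which encodes the usual partner of p52, was the lowest of the subunits, at 1.30, 0.66 and 1.08 CPM with DMSO and 0.65, 1.04 and 0.65 CPM with CDKI-73. The groups overlapped, with DMSO replicate 2 beside CDKI-73 replicates 1 and 3, and CDKI-73 replicate 2 beside DMSO replicate 3. The log2 fold change was −0.32 (SE 0.264, limma adjusted p = 0.296), and −0.69 (limma adjusted p = 0.0435) with scaling to the reference genes. Single samples moved it, to −0.14 without DMSO replicate 1, −0.58 without DMSO replicate 2 and −0.52 without CDKI-73 replicate 2. These levels correspond to an inferred 30 to 79 reads per sample. In DMSO replicate 1 the 79 reads have a Poisson 95% interval of 62.6 to 98.5, and in DMSO replicate 2 the 36 reads have one of 25.2 to 49.8. These intervals, which cover counting error only, do not overlap.

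*NFKBIA* (chr14:35401513-35404749), which encodes IκBα, the best known cytoplasmic inhibitor of p65 and p50, was the most abundant of the 10 genes with DMSO. It had 71.3, 68.0 and 68.5 CPM in DMSO replicates 1, 2 and 3 and 25.7, 26.7 and 19.8 CPM in CDKI-73 replicates 1, 2 and 3. Replicates with DMSO were nearly equal, whereas CDKI-73 replicate 3 lay below the other treated samples. The mean fell from 69.2 ± 1.78 to 24.0 ± 3.76 CPM (SD, n = 3 each), which leaves 34.7% of the DMSO level. The log2 fold change was −1.53 (SE 0.107, limma adjusted p = 3.4e-06), lower than in all but 13.2% of tested genes. It stayed beyond 2-fold in all 18 alternative settings, between −1.94 and −1.26. Of these settings, a filter, limma without trend or robust, and the replicate block cannot move the value.

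*NFKBIE* (chr6:44258166-44265551), which encodes IκBε, had 6.88, 5.56 and 6.09 CPM with DMSO and 1.58, 1.52 and 1.89 CPM with CDKI-73. Every treated sample was below 2 CPM and every DMSO sample above 5 CPM. This was the largest fall of the group, from 6.18 ± 0.664 to 1.66 ± 0.199 CPM (SD, n = 3 each), with a log2 fold change of −1.83 (SE 0.122, limma adjusted p = 2.6e-06). The fold change of *NFKBIE* too stayed beyond 2-fold in all 18 settings (−2.23 to −1.43), some of which cannot move it. The inferred reads ranged from 303 to 419 with DMSO and from 79 to 87 with CDKI-73.

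*NFKBIB* (chr19:38899666-38908889), which encodes IκBβ, had 15.1, 14.7 and 14.6 CPM with DMSO and 11.4, 11.7 and 13.7 CPM with CDKI-73. CDKI-73 replicate 3 came within 1 CPM of the lowest DMSO sample, yet the groups did not overlap. Its log2 fold change of −0.27 (SE 0.082, limma adjusted p = 0.0159) was near the median of all genes and depended on scaling and on single samples. With the median of gene ratios it was −0.10 (limma adjusted p = 0.318) and with the trimmed mean of M values −0.08 (limma adjusted p = 0.412), whereas with the reference genes it was −0.68 (limma adjusted p = 3.4e-05). Without DMSO replicate 1 it was −0.26 (limma adjusted p = 0.0511), without CDKI-73 replicate 1 −0.22 (limma adjusted p = 0.0589), and without CDKI-73 replicate 2 −0.24 (limma adjusted p = 0.0516). The gene overlaps exons of *SIRT2* on the opposite strand, though not in the bases of its MANE Select mRNA, and which strand was counted is not given in the sources used here.

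*NFKBIZ* (chr3:101827990-101861022), which encodes the nuclear protein IκBζ, had 2.30, 2.73 and 2.50 CPM with DMSO and 1.14, 1.0 and 1.5 CPM with CDKI-73. The groups did not overlap, and CDKI-73 replicate 3 was the highest of the treated samples. The log2 fold change was −1.01 (SE 0.158, limma adjusted p = 5.2e-04), just at the 2-fold threshold. It was −0.95 without DMSO replicate 2, −0.97 without CDKI-73 replicate 1 and −0.89 without CDKI-73 replicate 2, all past the limma adjusted p but short of 2-fold. It was also short of 2-fold with the median of gene ratios (−0.84), the trimmed mean of M values (−0.82), the upper quartile (−0.75), voom (−0.88) and a pseudocount of 1 CPM (−0.67). The inferred reads ranged from 132 to 149 with DMSO and from 52 to 69 with CDKI-73, and *NXPE3*, on the same strand, overlaps its annotated exons outside the MANE Select mRNA.

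*TNFAIP3* (chr6:137866349-137883312), which encodes A20, had 3.15, 3.36 and 3.61 CPM with DMSO and 1.31, 1.64 and 1.17 CPM with CDKI-73. All treated samples lay well under the lowest DMSO sample. The mean fell from 3.37 ± 0.230 to 1.37 ± 0.241 CPM (SD, n = 3 each), a log2 fold change of −1.25 (SE 0.138, limma adjusted p = 6.3e-05). It was −0.98 with scaling by the upper quartile and −0.89 with a pseudocount of 1 CPM.

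*TNIP1* (chr5:151029943-151087685), which encodes the partner through which A20 is brought to ubiquitin chains, had 33.6, 34.2 and 34.7 CPM with DMSO and 34.6, 32.3 and 32.6 CPM with CDKI-73. The groups overlapped, with CDKI-73 replicate 1 between DMSO replicates 2 and 3. The log2 fold change was −0.04 (SE 0.050, limma adjusted p = 0.459). Its direction depended on scaling: the change was 0.13 (limma adjusted p = 0.0392) with the median of gene ratios, 0.15 (limma adjusted p = 0.0222) with the trimmed mean of M values, 0.23 (limma adjusted p = 0.00274) with the upper quartile and −0.45 with the reference genes.

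**Figure D2:**
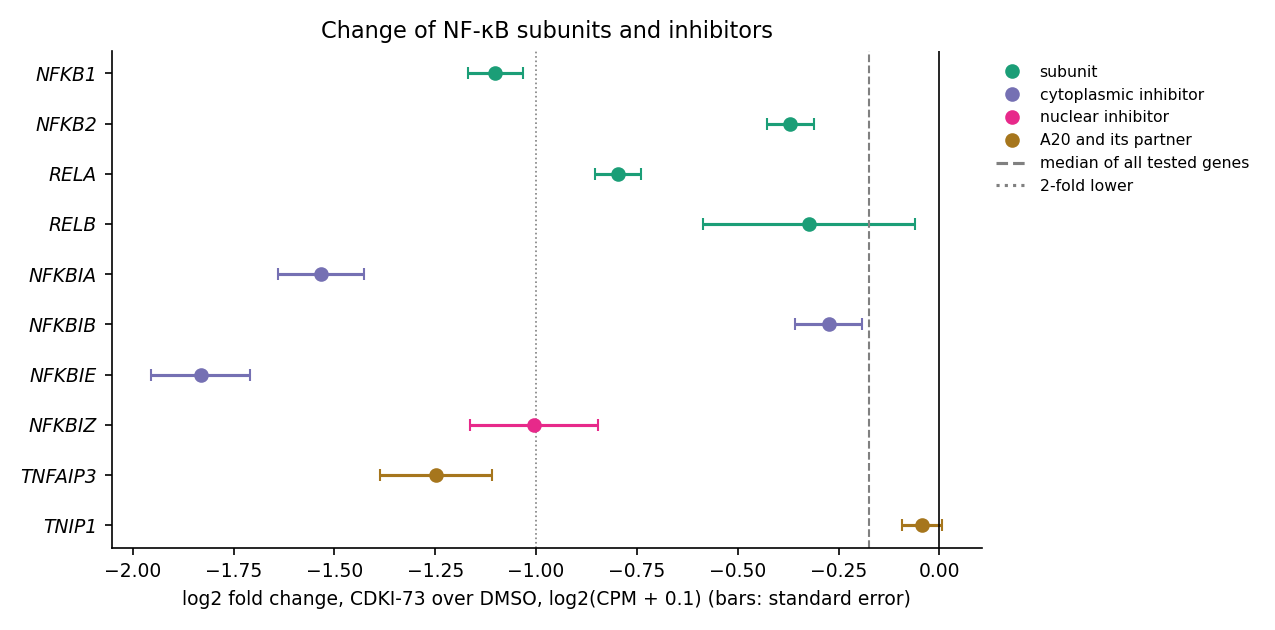
Log2 fold change of each gene on the log2(CPM + 0.1) scale, CDKI-73 over DMSO, with limma standard errors as bars and colours for subunits, cytoplasmic inhibitors, the nuclear inhibitor, and A20 with its partner. *NFKBIE* (−1.83) and *NFKBIA* (−1.53) lie furthest to the left of the dotted 2-fold line, and *NFKBIB* (−0.27) and *TNIP1* (−0.04) lie near the dashed median of all tested genes (−0.18).

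**Figure D3:**
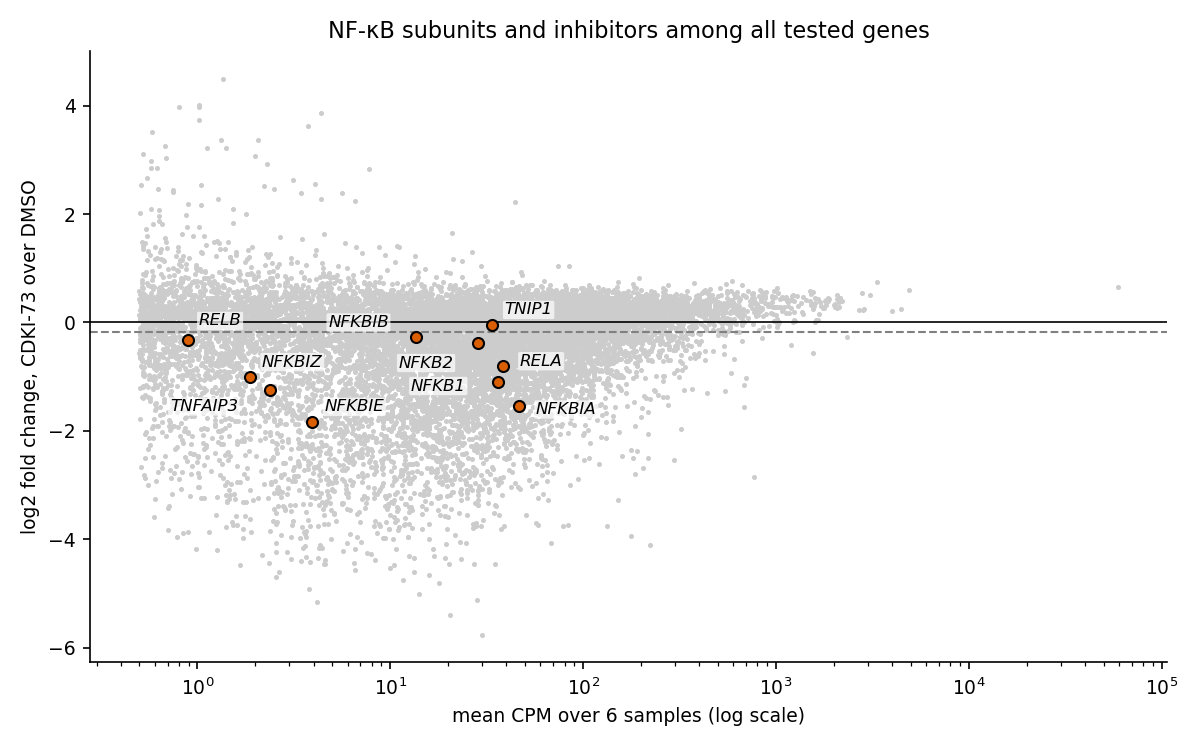
Log2 fold change, CDKI-73 over DMSO, against the mean CPM over the 6 samples (log scale) for the 13373 tested genes in grey and the 10 NF-κB genes in orange, with the median of all genes (−0.18) as a dashed line. All 10 lie below 0, among many other genes that lie lower.

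Relations among these genes can also be read within each sample, where the scaling of the sample cancels apart from the pseudocount. The log2 ratio of each gene to *RELA* was therefore compared between groups with an exact permutation test, two-sided, whose smallest p for 3 samples against 3 is 0.1 and so cannot reach 0.05. The ratio of *NFKBIE* to *RELA* was lower with CDKI-73, with a difference of −1.03 ± 0.141 (log2, standard error), and so was that of *NFKBIA*, with −0.74 ± 0.134. In *NFKBIA* the log2 ratio was 0.57, 0.54 and 0.40 with DMSO, so that its CPM exceeded those of *RELA*, and −0.18, −0.05 and −0.47 with CDKI-73, so that they were below them. CPM do not allow for mRNA length. Divided by mRNA length in kb, *NFKBIA* stayed above *RELA* with CDKI-73 (15.4 ± 2.41 against 11.1 ± 0.351, SD, n = 3). The log2 ratios of *TNFAIP3* (−0.45 ± 0.141) and *NFKB1* (−0.30 ± 0.047) to *RELA* were lower to a lesser degree. With a pseudocount of 1 CPM, which weighs on genes of low level, the difference was −0.11 for *TNFAIP3* and −0.65 for *NFKBIE*. *RELA* itself fell (log2 fold change −0.80, against a median of −0.18 over all tested genes), so any gene that fell less gains on it. In this sense the ratio was higher with CDKI-73 for *TNIP1* (0.75 ± 0.040), *NFKBIB* (0.52 ± 0.118) and *NFKB2* (0.43 ± 0.078), none of which rose in CPM as deposited. For these 7 genes the groups did not overlap (exact permutation p = 0.1, the smallest possible, and 0.129 after Benjamini-Hochberg adjustment over the 9 genes). The share of all tested genes whose ratio to *RELA* separates the groups was not computed, so the count does not set these genes apart. For *NFKBIZ* (−0.21 ± 0.195) and *RELB* (0.47 ± 0.322) the groups overlapped (exact permutation p = 0.3).

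**Figure D4:**
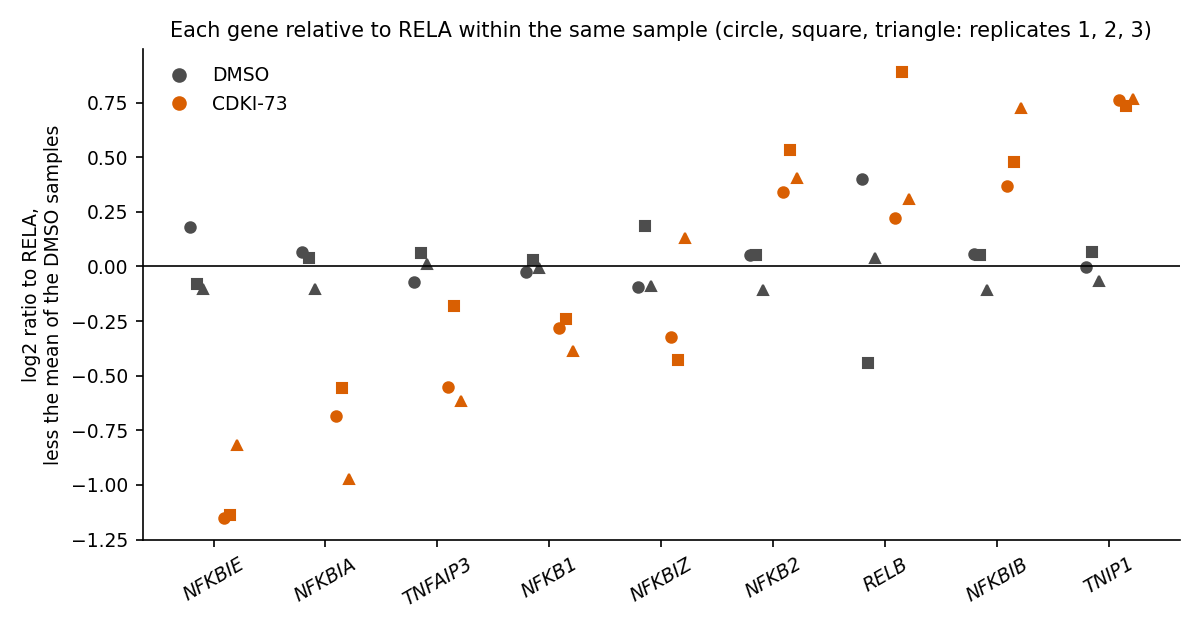
Log2 ratio of each gene to *RELA* in the same sample, less the mean of the DMSO samples, for DMSO (grey) and CDKI-73 (orange), with circles, squares and triangles for replicates 1, 2 and 3. The treated samples lie below 0 for *NFKBIE*, *NFKBIA*, *TNFAIP3* and *NFKB1* and above 0 for *NFKB2*, *RELB*, *NFKBIB* and *TNIP1*, and the groups overlap for *NFKBIZ* and *RELB*.

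CDKI-73 replicate 3 was not simply lower than its group. It was the lowest treated sample for *NFKBIA*, *NFKB1*, *NFKB2*, *RELA* and *TNFAIP3* and the highest for *NFKBIB*, *NFKBIE* and *NFKBIZ*. Without it, the log2 fold change of *NFKBIB* was −0.36 and that of *NFKBIZ* −1.16, against −1.04 for *NFKB1* and −1.15 for *TNFAIP3*.

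To compare levels between genes, CPM were divided by the length of the MANE Select mRNA in kb (GENCODE v44), since the annotation that was counted is not given in the sources used here. On this scale *NFKBIA* had 44.4 ± 1.14 CPM per kb (SD, n = 3) with DMSO, followed by *RELA* with 19.4 ± 1.08 CPM per kb. *NFKBIB* (12.4 ± 0.244), *NFKB1* (12.2 ± 0.602) and *TNIP1* (11.9 ± 0.190) came next, and the range of *NFKB1* overlapped those of its neighbours. *NFKB2* had 10.6 ± 0.193 CPM per kb and *NFKBIE* 2.64 ± 0.283. *TNFAIP3* (0.723 ± 0.049) and *NFKBIZ* (0.640 ± 0.055) overlapped, and *RELB* was the lowest with 0.449 ± 0.144 CPM per kb.

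With CDKI-73 the order changed. *NFKBIA* remained the highest with 15.4 ± 2.41 CPM per kb (SD, n = 3), but *TNIP1* (11.6 ± 0.424), *RELA* (11.1 ± 0.351) and *NFKBIB* (10.3 ± 1.07) now lay close behind, each overlapping the next. *NFKB1*, at 5.69 ± 0.405 CPM per kb, was now below *NFKB2* at 8.22 ± 0.464, with no overlap. *NFKBIE* had 0.710 ± 0.085 CPM per kb, and *RELB* (0.345 ± 0.0997), *NFKBIZ* (0.309 ± 0.066) and *TNFAIP3* (0.294 ± 0.052) overlapped one another.

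The genes differ in the features of their transcripts. Repeats of the pentamer ATTTA in a 3′ untranslated region are part of the AU-rich elements that mark many short-lived mRNAs. Searched on the mRNA strand with overlapping matches counted, ATTTA occurred 5 times in the 3′ untranslated region of *TNFAIP3*, 3 times each in *NFKBIA*, *NFKBIZ* and *NFKB1*, and 1 time in *NFKB2*. It did not occur in *NFKBIB*, *NFKBIE*, *RELA*, *RELB* or *TNIP1*. Of the 5 genes called lower, only *NFKBIE*, with the largest fall, had no match, and *NFKB2*, with 1 match, was not called. Of all tested genes matched to a MANE Select transcript 26.35% had no match, so the count does not set the called genes apart. Over the 11068 tested genes matched to a MANE Select transcript, the median log2 fold change was 0.13 for the 2916 genes without ATTTA, −0.14 for those with 1 to 2 matches, −0.38 with 3 to 5 and −0.44 with 6 or more. Longer regions hold more matches, and this is a description across genes, which are not independent.

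The span of the gene varied widely among the 10. *NFKBIA* covers 3.24 kb in 6 exons and *NFKBIE* 7.39 kb in 6 exons, and both fell more than *NFKB1*, which covers 116 kb in 24 exons. *TNIP1* covers 51.1 kb in 18 exons, and *NFKB2*, with a log2 fold change of −0.37, covers 6.82 kb in 23 exons. Of all matched genes, those under 10 kb had a median log2 fold change of −0.01, those of 10 to 30 kb −0.16, those of 30 to 100 kb −0.27 and those of 100 kb or more −0.23.

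The genes whose log2(CPM + 0.1), centred per gene, was most like that of *NFKBIA* over the 6 samples were *THAP10*, *MED13*, *ZNF140*, *IREB2* and *E2F7*, with root mean square differences of 0.040 to 0.050. *MED13*, for example, had 109.5 to 113.3 CPM with DMSO and 31.7 to 44.4 CPM with CDKI-73. Its lowest value, like that of *NFKBIA*, was in CDKI-73 replicate 3, which follows from choosing genes by likeness of profile.

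Around these genes, most measured genes of the pathway were also lower. Of 70 further pathway genes tested, in 6 lists, 55 were lower and 6 higher by the limma adjusted p, and 27 were called lower by at least 2-fold. Over all tested genes 48.2% were lower and 24.2% higher by the adjusted p, and 22.3% were called lower, and these shares stand beside each list in what follows. The median log2 fold change of the 70 genes was −0.80, against −0.18 over all tested genes. The lists too were written with earlier results of these data known. In the list of other genes of the NF-κB and IκB families and related regulators all 5 were lower (48.2% of all tested genes) and 4 were called (22.3%). *REL*, which encodes the subunit c-Rel, fell from 1.90 ± 0.080 to 0.320 ± 0.066 CPM (SD, n = 3; log2 fold change −2.26), and *NKRF*, which encodes a repressor of NF-κB target genes, from 36.5 ± 1.73 to 6.0 ± 1.04 CPM (−2.60). *NFKBID* (−2.33) and *BCL3* (−1.18), which encode nuclear IκB proteins, were also called lower.

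Of 13 genes for IKK and kinases upstream of it, 12 were lower and 4 of these were called, beside 48.2% and 22.3% of all tested genes. These 4 were *MAP3K8* (log2 fold change −2.23), *TBK1* (−2.07), *MAP3K14* (−1.91), which encodes the kinase NIK of the non-canonical branch, and *MAP3K3* (−1.24). The IKK genes themselves, *CHUK* (−0.39), *IKBKB* (−0.42) and *IKBKG* (−0.13, limma adjusted p = 0.201), outside the rule for named genes and added after their values were seen, changed less.

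Of 24 tested receptor and adaptor genes 18 were lower, 3 were higher and 9 were called lower, beside 48.2%, 24.2% and 22.3% of all tested genes. The ubiquitin ligase gene *TRAF6* fell from 11.5 ± 0.706 to 0.960 ± 0.171 CPM (SD, n = 3; log2 fold change −3.46). *BCL10* (−2.94), *TNFRSF1A* (−2.16), which encodes the main receptor for TNF, and *RIPK1* (−1.92), whose kinase acts below it, were also called lower. The 3 that were higher, *RBCK1* (0.40) and *SHARPIN* (0.41) of the linear ubiquitin ligase and the kinase gene *IRAK1* (0.24), were named after their values were seen.

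Among 11 tested genes for deubiquitinases and other negative regulators, 7 were lower, 4 of them called, and 1 was higher, *TAX1BP1* (0.20, a name added once its value was known), beside 48.2% lower, 22.3% called and 24.2% higher of all tested genes. *N4BP1* (−3.16), *ZC3H12A* (−2.27), which encodes an RNase that degrades inflammatory mRNAs, *TNIP2* (−1.28), a relative of *TNIP1*, and *OTUD7B* (−1.18) were called lower. Of 5 genes of the ligase that ubiquitinates IκB, 3 were lower (48.2% of all tested genes), 2 of these were called (22.3%) and 2 were higher (24.2%): *CUL1* (−1.76), *FBXW11* (−1.63) and *BTRC* (−0.84) were lower, whereas *RBX1* (0.37) and *SKP1* (0.30, named after its value was seen) were higher. The fall of *CUL1* was from 95.9 ± 2.81 to 28.3 ± 1.99 CPM (SD, n = 3).

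Many textbook NF-κB target genes were hardly measured in LNCaP cells. Of 29 listed, 28 were in the table, 16 of them had a mean under 0.5 CPM, and 3 (*CXCL1*, *CXCL3* and *IL6*) were at 0 in all 6 samples. Of the 12 tested, 10 were lower and 4 of these were called, beside 48.2% and 22.3% of all tested genes. Called were *GADD45B* (−3.24), the cytokine gene *LIF* (−2.13), *CD83* (−1.60) and *BIRC3* (−1.56), which encodes the ubiquitin ligase cIAP2. *BIRC3* had 15.2 to 15.6 CPM with DMSO and 4.27 to 5.97 CPM with CDKI-73. The antioxidant gene *SOD2* (0.13, limma adjusted p = 0.0816) and the chemokine gene *CXCL10* (−0.27, limma adjusted p = 0.243), named after their values were seen, did not pass.

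**Figure D5:**
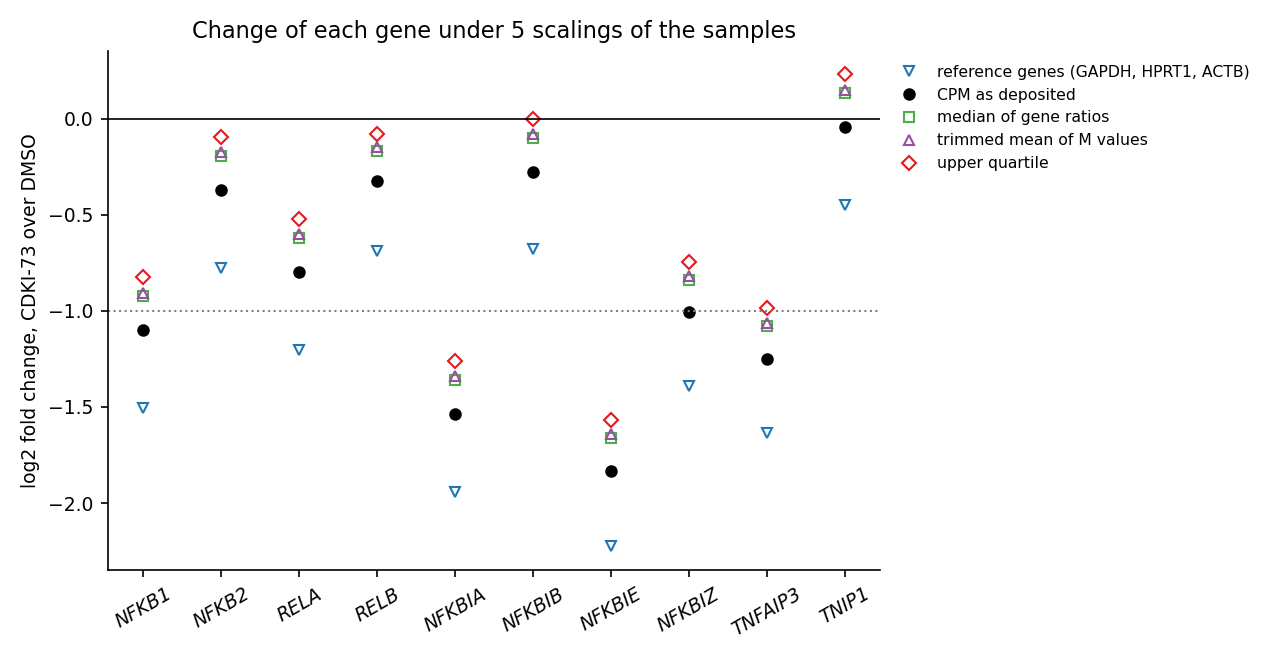
Log2 fold change of each gene, CDKI-73 over DMSO, with the CPM as deposited (black) and after 4 other scalings of the samples, with the dotted line at 2-fold lower. *NFKBIA* and *NFKBIE* lie below the line under each scaling, and *TNIP1* lies above 0 under 3 of them (0.13 to 0.23) and below 0 with the CPM as deposited (−0.04) and with the reference genes (−0.45).

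Scaling moved all 10 genes together and so changed how many passed 2-fold: 5 with the CPM as deposited, 3 with the median of gene ratios, 3 with the trimmed mean of M values, 2 with the upper quartile and 6 with the reference genes. In the same order, 2986, 2543, 2499, 2296 and 4377 of all 13373 tested genes were called lower. By limma *GAPDH*, *HPRT1* and *ACTB* were themselves higher in CPM with CDKI-73 (log2 fold changes 0.55, 0.32 and 0.36). Which scaling reflects RNA per cell was not tested.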

How the data were processed

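PolyA+ RNA of 3 CDKI-73 and 3 DMSO samples was sequenced as stranded single-end reads of 75 bp. The authors mapped reads to hg38 with STAR and counted them per gene. The submitters' processing notes also name FastQC, edgeR version 3.3 and R version 3.2.3. The deposited values are CPM, rounded to 0.01, without a TMM factor, and their columns all matched a sample. Since CDKI-73 stands in the titles of DMSO samples too, groups follow the treatment label. Neither annotation nor counted strand is given in the sources used here. Sequenced reads and the ChIP-seq data were not analysed here.

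CPM are not counts, so limma 3.58.1 (R 4.3.3; lmFit, eBayes with trend, no block) was run on log2(CPM + 0.1) for genes with a mean of at least 0.5 CPM, which understates changes of low genes. The fit was tried on simulated data in which as many genes were raised as lowered, which does not test a mostly one-sided change. Two-sided p-values received Benjamini-Hochberg adjustment over all tested genes. Replicates are biological by the study's methods. The limma p-values weigh a group difference against the spread between these samples, which eBayes draws toward a trend over all tested genes. Ratios to *RELA* were compared by exact permutation. Read totals were inferred from the CPM step (46.1 to 60.9 M), and Poisson intervals cover counting error only. Replicate numbers did not pair the samples (correlations of deviations −0.295, 0.106 and −0.227 for numbers 1, 2 and 3). The 10 genes and the pathway lists, written from general knowledge, were chosen with earlier results of these data known. Named genes are the 10, the genes of largest change (at most 4) past the adjusted p in each pathway list, the 5 nearest to *NFKBIA* and the reference genes, with others said to be added later. Features came from GENCODE v44 and RefSeq GRCh38.p14, joined with pandas 2.3.3 in Python 3.11.15. Alternatives were other scalings, pseudocounts (0.01 and 1 CPM), filters (none and 2 CPM), and limma without trend, robust or with a replicate block. Single samples were also left out. Voom on inferred reads, scaled by the trimmed mean of M values, was chosen after seeing the data.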

Additional observations from a re-analysis of the deposited data

How the results depend on the processing

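Fold changes of the 10 genes kept direction and side of the adjusted p in 164 of 178 alternative values, and ratios to *RELA* kept direction in 71 of 72. A filter, limma without trend or robust, and the replicate block cannot move a fold change, so there only the adjusted p could differ. Of the 10 genes, 5 were called lower as reported, and 3 with the median of gene ratios, the trimmed mean of M values, a pseudocount of 1 CPM or voom, and 2 with the upper quartile. Voom also scaled the samples by the trimmed mean of M values, so it does not change the model alone. Of all 13373 tested genes, 2986 were called lower as reported, 2543 with the median of gene ratios and 2499 with the trimmed mean of M values. The number was 2606 with a pseudocount of 1 CPM, 2540 with voom and 2296 with the upper quartile. The number higher at the adjusted p from limma was 1 (*TNIP1*) with the median of gene ratios, the trimmed mean of M values, the upper quartile and voom, where its log2 fold change was 0.13, 0.15, 0.23 and 0.15. The log2 ratio of *NFKBIZ* to *RELA* turned to 0.11 with a pseudocount of 1 CPM. Over all genes, 148 were called higher as reported, 227 with the trimmed mean of M values, 279 with the upper quartile, 79 with the reference genes, 52 with a pseudocount of 1 CPM, 377 without a filter, 52 with the filter at 2 CPM and 262 with voom. Apart from what the construction of each alternative does (fewer genes, another scale), the cause was not tested. With the replicate number as a block, 5 of the 10 genes were called lower and 8 passed the adjusted p, and the calls over all genes stayed at 2986 lower and 148 higher. The numbers did not pair the samples, and the correlation between the samples numbered 1 was −0.295. *NFKBIZ* and *RELB* have no value at a mean of at least 2 CPM. The lowest of the 10 genes, *RELB*, had 30 to 79 inferred reads per sample.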
